A study of Mus musculus with 5 samples.

Results

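Notch signalling was followed here through 10 genes, the ligands Dll4 and Jag1, the receptors Notch1, Notch2 and Notch3, and the target genes Hes1, Hey1, Hey2, Heyl and Nrarp. Every probe set whose platform annotation gave 1 of these symbols and no other was taken, which gave 19 of the 45101 probe sets on the array. These genes are 10 of the 18193 that a probe set names singly. RNA came from cultures labelled as endothelial, the lining of the aorta, from mice of C57BL/6J background, and was measured on 5 one-colour oligonucleotide arrays. By title, 2 arrays were TNF-LTBR at 24 h and 3 were control at 24 h. TNF is an inflammatory cytokine and LTBR is the lymphotoxin beta receptor, and the design text describes stimulation with agonists. No source used here names the agonists or doses, and the treatment text, identical for all 5 samples, names PBS as the sole supplement, so the titles alone set TNF-LTBR samples apart. The labels do not state that replicate arrays stem from different animals or dishes, so each p-value reflects a spread that may be technical.

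In Notch signalling a ligand on a cell binds a receptor on its neighbour. The receptor is then cut by a metalloprotease and by gamma-secretase, and its freed intracellular part enters the nucleus, where it joins the DNA-binding protein RBPJ and turns on genes of the Hes and Hey families. In blood vessels Dll4 and Notch1 are known for their part in sprouting and arterial identity, Jag1 for signalling to the surrounding mural cells, and Notch3 as a receptor of smooth muscle cells and pericytes.

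No Notch ligand, receptor or target changed between the TNF-LTBR and control cultures past the test's threshold. Nor did any other of the 27022 probe sets tested. The clearest separation among members was in Hes1, a transcriptional repressor and classical Notch target, at 0.633-fold. It lay lower on both TNF-LTBR arrays than on any control array, as did 6.28% of all probe sets tested. Jag1 had lower means in TNF-LTBR on all 3 of its probe sets, at 0.788-fold, 0.860-fold and 0.859-fold, with overlapping groups. Notch3 and Heyl differed far more between arrays of the same title than between the titles. All values are intensities as deposited, or log2(intensity + 16), and folds are on that log scale, which understates changes of dim genes.

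The arrays did not sort by title. Over the 27022 probe sets tested, TNF-LTBR array 2 correlated best with control array 3 (r = 0.977, across probe sets), and TNF-LTBR array 1 with control array 2 (r = 0.973), against 0.923 between both TNF-LTBR arrays. Results are therefore also given without TNF-LTBR array 2 and control array 3. Endothelial markers varied in signal. Pecam1 read 120.8 and 52.6 on TNF-LTBR arrays 1 and 2, against 198.9, 161.3 and 56 on control arrays 1 to 3. Cdh5, the cadherin of endothelial junctions, read 135.1 and 28.7 in TNF-LTBR, against 235.6, 123.2 and 55.3 in control. Of 18 endothelial markers, 13 passed the brightness filter described below, and Vwf stayed between 2.3 and 7.2 on the 5 arrays. Eng, the endoglin coreceptor, was bright, at 1562.5 and 1693.5 in TNF-LTBR and 1550.2 to 1858.3 in control, and Plvap read 469.8 and 759.3 in TNF-LTBR and 401.3 to 460.9 in control. All 9 fibroblast and pericyte markers passed the filter, among them Pdgfra at 9001.8 and 6880.8 in TNF-LTBR and 2110.1 to 5847.9 in control, and Cspg4 at 251.4 and 429.5 in TNF-LTBR and 278.6 to 295.1 in control. Of the 9, 1 (Pdgfra) had groups that did not overlap, against 14.1% of all probe sets tested. Means were lower in TNF-LTBR for Pdgfrb, Col1a1, Col3a1 and Thy1 and higher for the others. Thy1 read 8871.2 and 127.9 in TNF-LTBR, against 2583.1, 12215.1 and 154.6 in control. Lum went the other way, at 1103.8 and 12933.2 in TNF-LTBR, against 1145.4, 818 and 12967.3 in control. Kdr, the VEGF receptor, read 336.9 and 255.1 in TNF-LTBR, against 344.3, 364.2 and 258 in control. Bulk values cannot tell fewer cells of a type from less RNA per cell.

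Promoter sequences from RefSeq (build GRCm38.p6, 250 bases before to 50 after the transcription start) were matched for 7 of the 10 members. Hes1, Hey1 and Heyl are named without a sequence. The promoters below are shown for Hey2, a target of the pathway, for Jag1, the ligand with lower means on every probe set, and for Notch3, the receptor that varied most between arrays. Each runs 5′ to 3′, and capitals mark the RBPJ core TGGGAA, on either strand, and the site bound by Hes and Hey proteins, CACGNG, on either strand.
Hey2, chr10:30842734-30843033, minus strand: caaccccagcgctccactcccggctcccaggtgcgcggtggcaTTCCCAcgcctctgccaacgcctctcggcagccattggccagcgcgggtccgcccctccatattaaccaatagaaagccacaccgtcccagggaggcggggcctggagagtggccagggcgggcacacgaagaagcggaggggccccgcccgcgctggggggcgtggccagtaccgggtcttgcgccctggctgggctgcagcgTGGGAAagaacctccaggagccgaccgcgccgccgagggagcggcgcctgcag
Jag1, chr2:137116471-137116770, minus strand: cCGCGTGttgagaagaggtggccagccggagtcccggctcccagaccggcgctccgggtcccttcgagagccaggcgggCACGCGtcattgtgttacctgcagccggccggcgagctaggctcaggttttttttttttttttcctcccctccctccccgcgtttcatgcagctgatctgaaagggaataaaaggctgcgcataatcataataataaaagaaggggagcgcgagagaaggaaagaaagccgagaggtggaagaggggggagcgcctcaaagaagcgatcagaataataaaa
Notch3, chr17:32166841-32167140, minus strand: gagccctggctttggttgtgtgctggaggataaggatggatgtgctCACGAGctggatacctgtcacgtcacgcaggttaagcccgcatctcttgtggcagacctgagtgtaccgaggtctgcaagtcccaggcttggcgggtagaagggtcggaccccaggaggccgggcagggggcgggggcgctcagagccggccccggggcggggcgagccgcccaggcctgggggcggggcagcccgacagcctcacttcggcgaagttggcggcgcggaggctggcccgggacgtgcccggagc

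Of the 7 promoters, the 1 of Hey2 held the RBPJ core, with 2 matches, beginning 207 and 3 bases before the start. The Hes and Hey site was matched in 5 of the 7, namely Dll4, Jag1, Notch2, Notch3 and Nrarp, with 2 matches in Jag1 and 1 in Notch3. Among 27025 mouse promoters of the same length, 1 a gene, 25.5% held TGGGAA and 27.7% held CACGNG. A consensus NF-kB site, present in 4.35% of those promoters, was matched in Notch2 and Nrarp. Such matches describe letters in these windows and say nothing of binding.

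Transcript levels in TNF-LTBR were set against control with limma, with Benjamini-Hochberg adjustment over the 27022 probe sets that made up the brightest 60%, whose lowest mean log2 value was 6.41 (intensity 68.8). A total of 15 member probe sets, of 8 genes, passed this filter, and the 4 others were the probe sets of Hey1 and Hey2 and the dimmer 2 of Heyl. The limma test called 0 of the 15 member probe sets and 0 of all probe sets (0% called), with every adjusted p at 1.00. At an unadjusted p under 0.05 it held 1 member probe set, that of Hes1, and 534 of all probe sets (1.98%).

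Of the 15 tested member probe sets, 1 had groups that did not overlap, against 14.1% of all probe sets tested in either direction and 6.28% in the lower direction. Differences were positive for 7 and negative for 8 of the 15, with a median of -0.22, beside a median of 0.0037 over all probe sets tested. With any 1 array left out the median of the 15 lay between -0.11 and 0.00014, at 0.00014 without control array 2 and -0.0098 without TNF-LTBR array 2. Over all 19 the median was -0.036, with 9 positive and 10 negative, and Hes1 was again the 1 without overlap, against 15.7% of all probe sets without a filter, 6.85% in the lower direction.

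**Figure D1:**
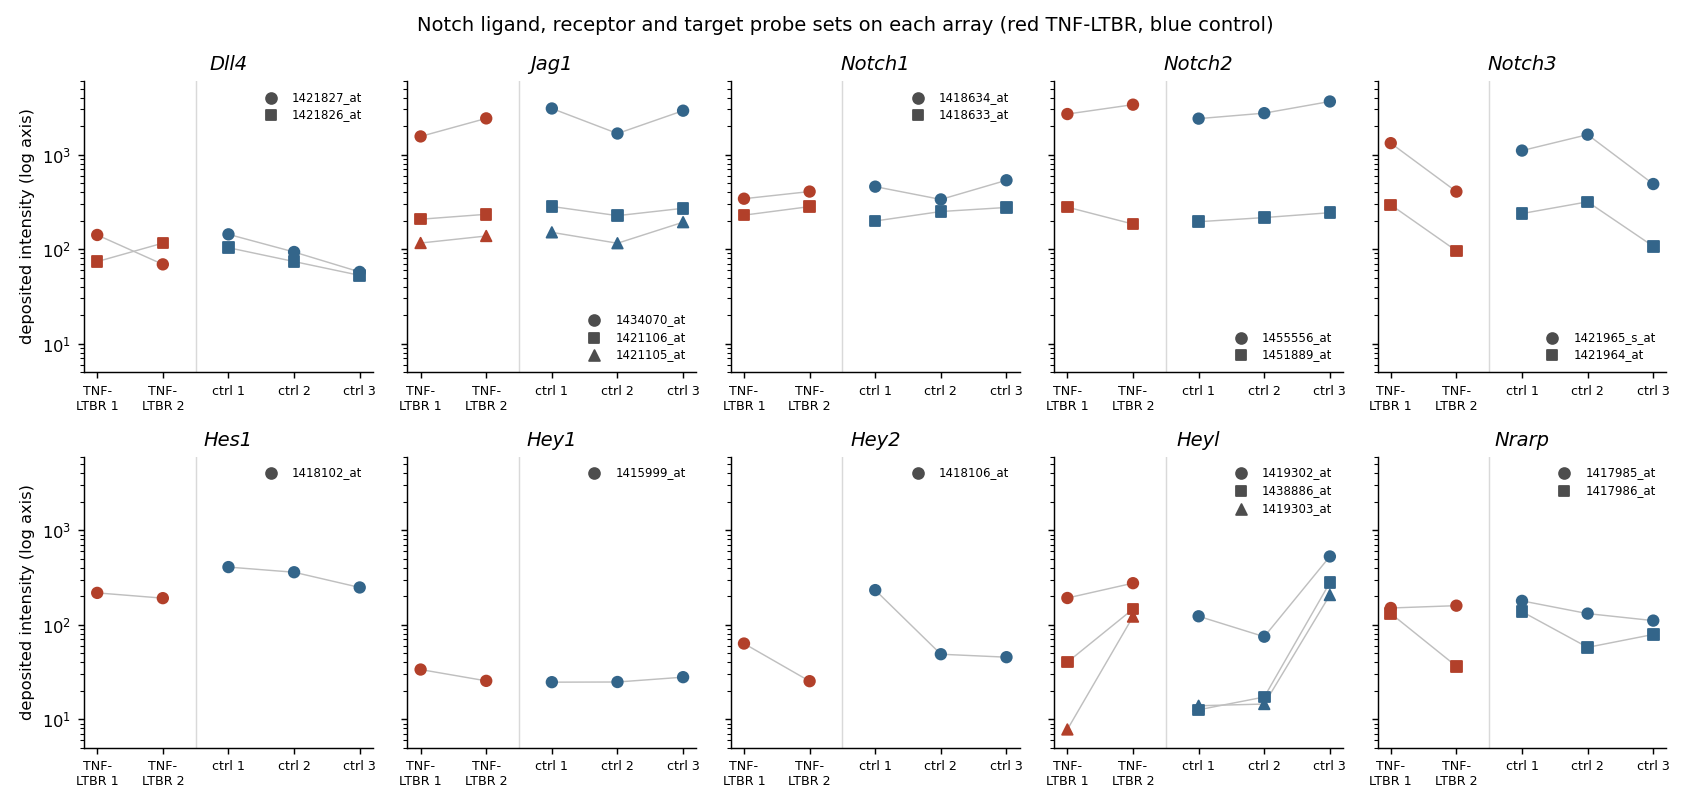
Intensity as deposited (log axis) of each of the 19 member probe sets on each array, TNF-LTBR arrays 1 and 2 in red at the left and control arrays 1 to 3 in blue at the right of each panel; markers tell probe sets of a gene apart and grey lines join arrays of 1 group. Hes1 lies at 217.5 and 191.3 in TNF-LTBR, below all controls, while Notch3, Heyl and Hey2 each span a wide range within a group.

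Dll4 encodes the Delta-like ligand of vessel sprouts. Its brighter probe set, 1421827_at, read 141 and 68.9 on TNF-LTBR arrays 1 and 2, against 143.2, 93.1 and 57.3 on control arrays 1 to 3. The groups overlapped fully, and the difference of 0.091 ± 0.44 (log2, SE) had a 95% interval of -1.01 to 1.19. The other probe set, 1421826_at, read 73.7 and 115.6 in TNF-LTBR, against 103.4, 73.8 and 52.7 in control, a difference of 0.27. The order of the TNF-LTBR arrays was opposite on the 2 probe sets, array 1 being higher on the brighter and array 2 on the dimmer. Without TNF-LTBR array 2 and control array 3 the differences were 0.25 and -0.21.

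Jag1 encodes a ligand of the Serrate class. Its brightest probe set, 1434070_at, read 1555.8 and 2414.7 on TNF-LTBR arrays 1 and 2, against 3073.9, 1670.1 and 2912.9 on control arrays 1 to 3. TNF-LTBR array 1 was the lowest of the 5, but control array 2 lay beside it and TNF-LTBR array 2 above that control, so the groups overlapped. The log2 mean was 10.93 ± 0.44 in TNF-LTBR (SD, n = 2) and 11.28 ± 0.48 in control (SD, n = 3), and the difference of -0.34 ± 0.34 (SE) had an interval of -1.18 to 0.49 (limma adjusted p 1.00). The probe set 1421106_at read 207 and 233.3 in TNF-LTBR, against 282.3, 225.8 and 270 in control. The dimmest, 1421105_at, read 115.9 and 137.5 in TNF-LTBR, against 150.3, 115.3 and 192.5 in control. On each of the 3 probe sets, control arrays 1 and 3 were the highest and control array 2 lay within or below the TNF-LTBR values. The 3 probe sets measure 1 transcript on the same arrays and are not separate replicates. Their differences stayed negative in each fit that left out 1 array, between -0.66 and -0.029 for 1434070_at, and without TNF-LTBR array 2 and control array 3 (-0.54, -0.27 and -0.16).

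Notch1 encodes the receptor required for vascular development. The probe set 1418634_at read 341.2 and 406 in TNF-LTBR, against 457.7, 335.2 and 534.8 in control, a difference of -0.22 with an interval of -0.83 to 0.40. The probe set 1418633_at read 228.5 and 281.4 in TNF-LTBR, against 198.2, 249.7 and 275.6 in control, a difference of 0.080 with an interval of -0.48 to 0.64. The probe sets thus leaned opposite ways, each by less than the SD of the control arrays.

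Notch2, a receptor also expressed in mural cells, differed little in its means. On its bright probe set, 1455556_at, it read 2684.5 and 3373.8 in TNF-LTBR, against 2400.4, 2743.1 and 3644.6 in control, a difference of 0.061 with an interval of -0.49 to 0.61. On the dimmer 1451889_at it read 277.8 and 183.9 in TNF-LTBR, against 194.8, 215.4 and 242.6 in control, a difference of 0.058. The bright probe set was highest on control array 3 and TNF-LTBR array 2, and the dimmer one was lowest on TNF-LTBR array 2.

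Notch3 differed between arrays more than the other receptors. On 1421965_s_at, whose suffix marks probes that can match more than 1 transcript, it read 1320.8 on TNF-LTBR array 1 and 405.5 on TNF-LTBR array 2, against 1102.2, 1624.6 and 487.8 on control arrays 1 to 3. On 1421964_at it read 294.1 and 95.9 in TNF-LTBR, against 237.7, 316.3 and 107 in control. Both probe sets gave the 5 arrays the same order, control 2, TNF-LTBR 1, control 1, control 3 and TNF-LTBR 2 from high to low, so each group held arrays at both levels. The range over the 5 arrays was 1.96 on the log2 scale for 1421965_s_at, wider than for 94.1% of the probe sets tested, and 1.57 for 1421964_at. The differences between groups were -0.38 (interval -2.03 to 1.28) and -0.23 (interval -1.70 to 1.25).

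The direction of Notch3 turned with single arrays. Without TNF-LTBR array 2 the differences were 0.46 and 0.51, and without TNF-LTBR array 1 they were -1.21 and -0.96. Without control array 3 they were -0.85 and -0.64. With TNF-LTBR array 2 and control array 3 both left out they were -0.019 and 0.095.

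**Figure D2:**
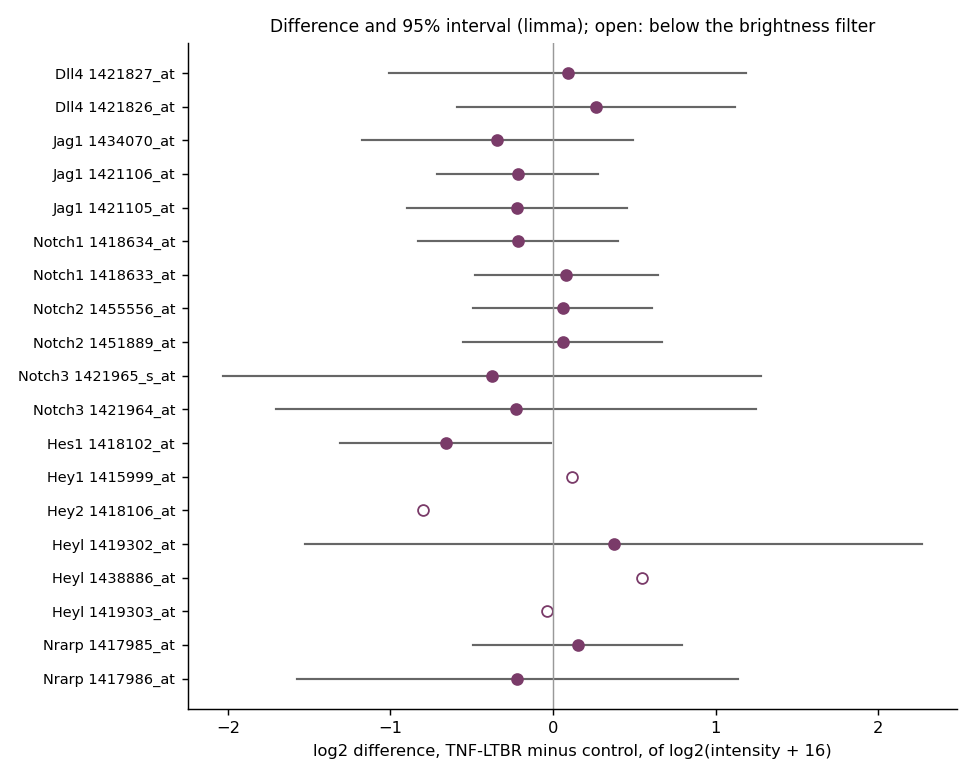
Difference in mean log2(intensity + 16), TNF-LTBR minus control, for the 19 member probe sets, ordered by ligands, receptors and targets from top to bottom; bars are 95% intervals from limma, and open circles are the 4 probe sets below the brightness filter, drawn without an interval. The Hes1 interval runs from -1.31 to -0.014 and the other 14 cross 0.

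Hes1 read 217.5 and 191.3 on TNF-LTBR arrays 1 and 2, against 407.8, 359.7 and 248.2 on control arrays 1 to 3, on its single probe set, 1418102_at. Both TNF-LTBR arrays lay below all controls, with the smallest gap to control array 3. The log2 mean was 7.78 ± 0.12 in TNF-LTBR (SD, n = 2) and 8.44 ± 0.35 in control (SD, n = 3), a difference of -0.66 ± 0.26 (SE) with an interval of -1.31 to -0.014. Its unadjusted limma p was 0.0467, rank 493 of 27022, and its adjusted p 1.00. With 2 and 3 arrays, no exact permutation p (two-sided) can fall below 0.1. The unadjusted limma p was 0.129 without control array 1 and 0.116 without control array 2. Without control array 3, 2 member probe sets had an unadjusted p under 0.05. With the replicate numbers fitted as a block there were also 2. These were Hes1 (limma p 0.0367) and Heyl 1419302_at, which differed by 1.13 (limma p 0.0439). Since the Hes1 groups did not overlap, leaving out arrays could not change the sign of the Hes1 difference. It lay between -0.86 and -0.52 in the 5 fits that left out 1 array. Without TNF-LTBR array 2 and control array 3 it was -0.77.

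The genes whose profile over the 5 arrays was nearest to that of Hes1, by root mean square difference of centred log2 values among 12949 other genes, were Rapgefl1 (0.0799), Ppp1r3d (0.0970), Lzts3 (0.0986), Col22a1 (0.104) and Mgat4a (0.120). With 5 arrays such likeness is a description and does not show shared control. Of these 5, Mgat4a had overlapping groups.

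Hey1 and Hey2 encode repressors of the Hairy family, and both were dim. Hey1 read 33.6 and 25.5 in TNF-LTBR, against 24.7, 24.8 and 27.9 in control, on a single probe set below the filter. Hey2 read 63.3 and 25.3 in TNF-LTBR, against 232.7, 48.8 and 45.4 in control. Control array 1 stood above the other 4 arrays, which overlapped. The Hey2 difference of -0.80 was -0.14 without control array 1, so that array carried most of it.

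Heyl, the third gene of the Hey group and one known from smooth muscle, ran opposite to Notch3. On 1419302_at it read 192 and 275.5 on TNF-LTBR arrays 1 and 2, against 123, 74.8 and 528.3 on control arrays 1 to 3. On 1438886_at it read 40.2 and 146.7 in TNF-LTBR, against 12.6, 17.2 and 279.5 in control. On 1419303_at it read 7.8 and 122 in TNF-LTBR, against 13.9, 14.5 and 206.3 in control. Control array 3 was the highest and TNF-LTBR array 2 the next on all 3 probe sets, the same arrays on which both Notch3 probe sets were lowest. The range over the 5 arrays on 1419302_at was 2.58, wider than for 97.4% of the probe sets tested, and its difference between groups was 0.37 ± 0.77 (SE, interval -1.53 to 2.27).

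The Heyl difference on 1419302_at was 1.13 without control array 3 and -0.16 without control array 2. With TNF-LTBR array 2 and control array 3 both left out it was 0.89, with 0.87 and -0.34 on the dimmer probe sets. The nearest genes to its profile were Rdh10 (root mean square difference 0.273), Papss2 (0.303), Tmem266 (0.310), Cyp4b1 (0.330) and Wfdc3 (0.332), all with overlapping groups.

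Marker lists of other cells moved over the arrays too. The summed intensity of 8 smooth muscle markers was 6805.2 and 4036.2 on TNF-LTBR arrays 1 and 2, against 14633.7, 11969.5 and 4211.1 on control arrays 1 to 3, lowest on the arrays where Notch3 was low. Tagln, a contractile protein, read 1315.1 and 19.4 in TNF-LTBR, against 3307.9, 2335.1 and 72.1 in control, while Myh11, the smooth muscle myosin, stayed at 41.3 or less on all 5 arrays. Acta2, smooth muscle actin and the brightest of the list, read 4156.4 and 2066.4 in TNF-LTBR, against 7581.6, 8169.4 and 2082 in control. Other list members did not follow this order. Smtn read 967.7 and 1505.9 in TNF-LTBR, against 2969.4, 1079.6 and 1577 in control, and Lmod1 read 76.8 and 242.2 in TNF-LTBR, against 478, 123 and 269.9 in control. Des stayed between 130.1 and 174.6 on the 5 arrays. The sum of 7 macrophage and leukocyte markers was 6582.8 and 1405.4 in TNF-LTBR, against 2982.8, 6031 and 1615.7 in control, again lowest on TNF-LTBR array 2 and control array 3. Lyz2 was the largest term of this sum on TNF-LTBR array 1 (3933.6) and control array 2 (3409.2). Cd14 did not follow this order, at 831.6 and 797.8 in TNF-LTBR, against 600.2, 1081.1 and 828.8 in control. Itgam, below the brightness filter, read 118.7 and 35.9 in TNF-LTBR, against 21.8, 24.7 and 5.3 in control. The leukocyte marker Ptprc also stayed below the filter.

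The sum of 18 endothelial markers was 4234.5 and 3620.9 in TNF-LTBR, against 4495.7, 4754.9 and 3459.3 in control. Eng was its largest term on each array, and some markers varied more than the sum. Emcn read 477.3 and 78.4 in TNF-LTBR, against 220.9, 660.8 and 81.4 in control. Of the 18, 1 (Plvap) lay higher without overlap and 1 (Erg) lower, against 15.7% of all probe sets without a filter. Erg, below the filter, read 9.1 and 8.9 in TNF-LTBR, against 68.2, 54.9 and 37.5 in control. The sum of 9 fibroblast and pericyte markers was 63264 and 73685.6 in TNF-LTBR, against 35608.2, 63974 and 66565.8 in control. The part of these lists in the Notch3 and Heyl values was not tested.

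**Figure D3:**
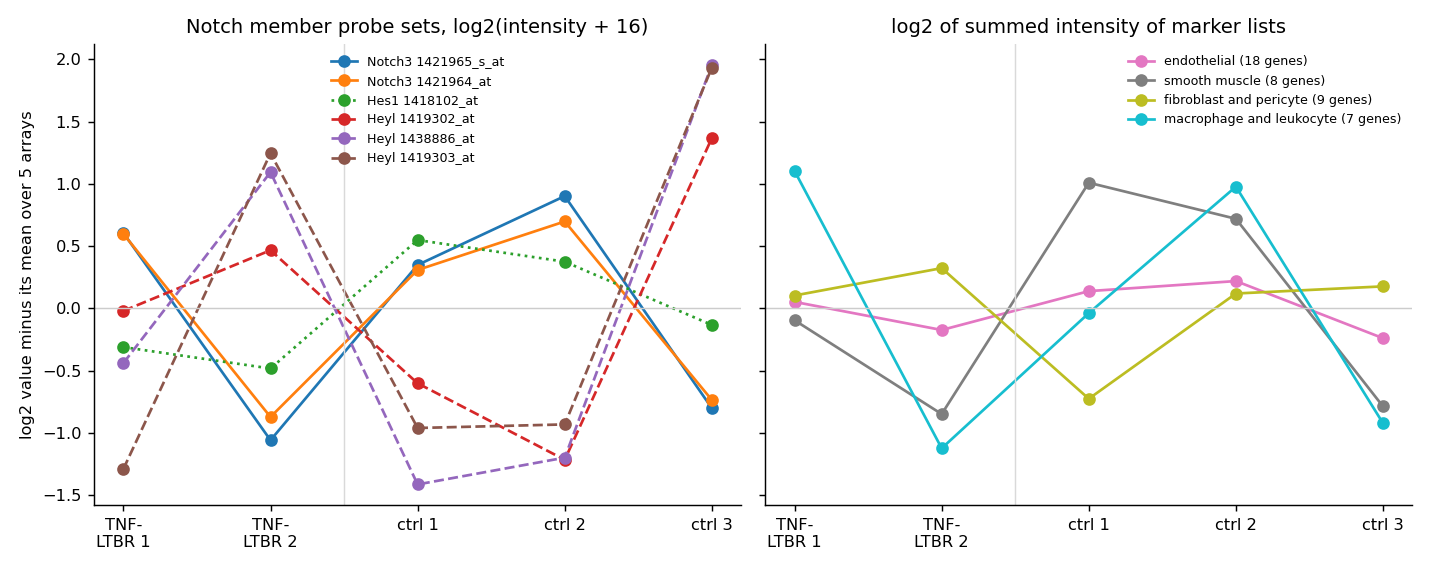
Left, log2(intensity + 16) of the Notch3, Heyl and Hes1 probe sets minus each probe set's mean over the 5 arrays; right, log2 of the summed intensity of 4 marker lists minus its mean over the arrays, with TNF-LTBR arrays at the left and control arrays at the right of each panel. Notch3 is lowest and Heyl highest on TNF-LTBR array 2 and control array 3. The smooth muscle (4036.2 and 4211.1), macrophage and leukocyte (1405.4 and 1615.7) and endothelial sums (3620.9 and 3459.3) are also lowest there. The fibroblast and pericyte sums are highest there (73685.6 and 66565.8).

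Nrarp encodes an ankyrin-repeat protein that is induced by Notch and dampens it. Its brighter probe set, 1417985_at, read 150.5 and 159.3 in TNF-LTBR, against 179, 131.3 and 110.7 in control, a difference of 0.15 with an interval of -0.49 to 0.80. The other probe set, 1417986_at, read 131.7 and 36.4 in TNF-LTBR, against 137.7, 57.7 and 79 in control, a difference of -0.22 with an interval of -1.58 to 1.14. The probe sets leaned opposite ways and both overlapped.

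**Figure D4:**
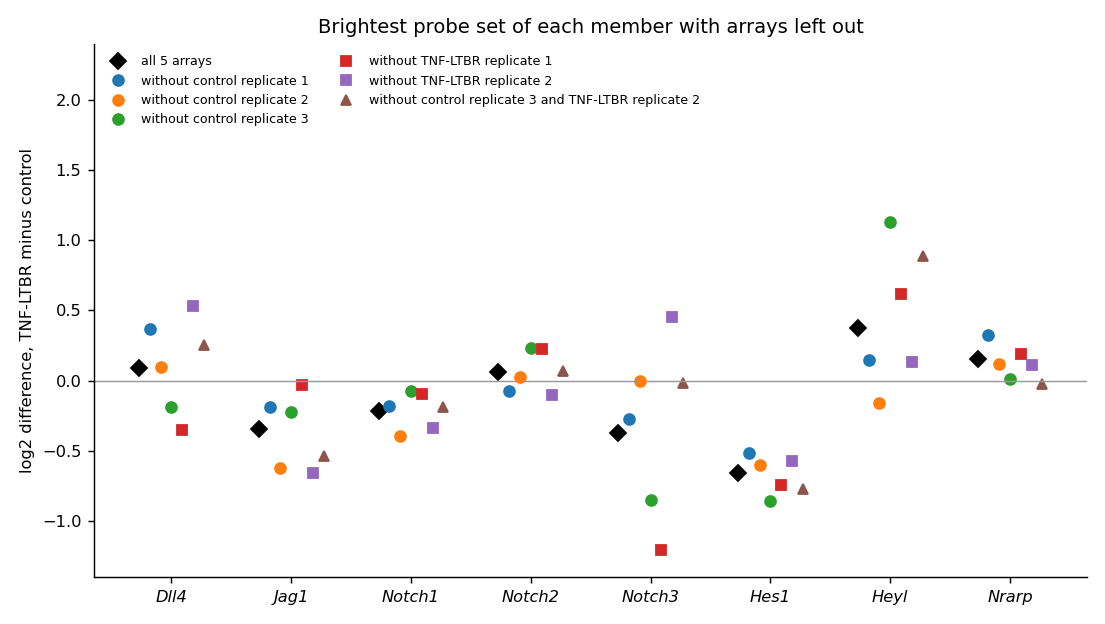
Difference in mean log2(intensity + 16), TNF-LTBR minus control, on the brightest probe set of each of the 8 members above the brightness filter, with all 5 arrays (black diamonds) and with arrays left out (coloured symbols). Hes1, Jag1 and Notch1 stay below 0 in every case, which for Hes1 follows from its groups not overlapping. With 1 array left out Hes1 lies between -0.86 and -0.52, while Notch3 spans -1.21 to 0.46.

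The wider pathway was read from 54 further genes, of which 50 had a probe set and 45 were tested, each by its brightest. In limma 0 of the 45 passed in either direction and 0 had an unadjusted p under 0.05, against 1.98% of all probe sets. The median difference was -0.046, with 18 positive and 27 negative. Both TNF-LTBR arrays lay below all controls for 5 of the 45 and above them for 0, against 6.28% and 7.8% of all probe sets tested. By function the median was 0.19 for 4 other ligands, -0.0056 for 8 genes of receptor processing, 0.037 for 4 glycosyltransferases, -0.076 for 9 nuclear factors, -0.11 for 12 genes of endocytosis and turnover, and -0.12 for 7 other targets. Rbpj, the DNA-binding partner of all Notch receptors, read 7789.8 and 6473.5 in TNF-LTBR, against 8931.5, 7230 and 6101 in control, a difference of -0.046 ± 0.19 (SE).

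The pathway genes with the smallest unadjusted p on the lower side were Kat2b, Neurl3, Dlk1 and Numbl. Kat2b, an acetyltransferase that acts with the Notch complex, read 1894.5 and 1850 in TNF-LTBR, against 2360.6, 2235.7 and 2157.6 in control, a difference of -0.26 (limma p 0.0909, adjusted p 1.00). Its groups did not overlap and the spread within each was narrow. Dlk1, a non-canonical ligand, read 155.8 and 74.6 in TNF-LTBR, against 647, 181.8 and 165.2 in control, a difference of -1.20. Numbl, a relative of the Notch antagonist Numb, differed by -0.35, and Neurl3, of the Neuralized family, by -0.82 with overlapping groups.

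On the higher side the smallest p belonged to Myc, Dll3, Adam17 and Dtx2, all with overlapping groups. Myc, a growth regulator and Notch target in some cells, read 1661.5 and 1229.2 in TNF-LTBR, against 886.1, 1375.9 and 709.7 in control, a difference of 0.58 (limma p 0.120, adjusted p 1.00). Dll3, a divergent Delta ligand, differed by 0.45, Adam17, a metalloprotease that can cut Notch, by 0.27, and Dtx2, a Deltex ubiquitin ligase, by 0.24.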

How the data were processed

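The authors deposited linear array intensity for each probe set on 5 arrays. The submitters' processing notes name GCOS version 1.4, and no source used here gives the summary algorithm or scaling target. Trimmed means were 500.0 on each array (2% cut at either end), and array medians were 109.9 to 120.7, so values were used as scaled. The number of arrays limits the precision.

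Groups came from the titles. After 64 control probe sets were left out, log2(intensity + 16) of the brightest 60% of 45037 probe sets by mean over all arrays was fitted in R 4.3.3 with limma 3.58.1 (lmFit, eBayes with an intensity trend, 3 residual degrees of freedom), two-sided, adjusted over all probe sets tested, at a threshold of 0.05. The fit was tested on simulated arrays with independent noise for each probe set. Those arrays lack the likeness across titles seen here, so that test does not cover it. Symbols came from the platform annotation (34945 probe sets with 1 symbol, 932 with several, 9160 with none listed), and 34741 matched a RefSeq gene by Entrez ID, with 0 symbols changed.

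All members are named. Of the pathway list, genes past the threshold or else the 4 with the smallest p per direction are named, likewise the 5 nearest profiles to the member with the smallest p and to the member with the widest range. Rbpj, Tagln, Myh11, Vwf and other markers were named in addition. The members and lists were chosen with earlier results of these data known. Alternatives were other pseudocounts, filters, scalings, probe set choices, variance models, a replicate block and left-out arrays.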

Additional observations from a re-analysis of the deposited data

How the results depend on the processing

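No member, pathway or other probe set passed the threshold under any of the 16 other settings or in the added fit without TNF-LTBR replicate 2 and control replicate 3, which was chosen after seeing the data and has 1 residual degree of freedom. The differences of Hes1, of the Jag1 probe set 1434070_at and of the Notch1 probe set 1418634_at kept their sign in all of these. So did that of Hey2, which lay below the filter in the main fit. For Hes1 no fit with arrays left out could have turned the sign, as its groups did not overlap. The other 2 Jag1 probe sets kept their sign in each setting that kept them, which the choice of the brightest probe set per gene did not. The median over tested member probe sets, -0.22, was -0.033 with pseudocount 64, -0.036 without a filter, -0.071 with the replicate block, -0.079 without shared-sequence suffixes and -0.019 in the added fit. The pathway median, -0.046, was -0.068 with the stricter filter, -0.073 with median centring, -0.022 with the replicate block and -0.043 in the added fit. With 1 array left out, the medians ranged from -0.11 to 0.00014 and from -0.039 to -0.018. Member probe sets without overlap numbered 2 to 7 of 15 with 1 array left out and 6 in the added fit, where 22.3% to 55.7% and 70.3% of all probe sets tested did not overlap, since fewer arrays overlap less. Dll4 on 1421827_at turned to -0.068 with array quality weights and -0.19 with the replicate block. In the added fit, Dll4 on 1421826_at turned to -0.21, Notch3 on 1421964_at to 0.095, and Nrarp to -0.026 on 1417985_at and 0.47 on 1417986_at. With 1 array, or both arrays of the added fit, left out, values ranged from -0.35 to 0.53 for Dll4 1421827_at, from -0.21 to 0.54 for Dll4 1421826_at, from -0.061 to 0.22 for Notch1 1418633_at, from -0.10 to 0.23 for Notch2 1455556_at, from -0.22 to 0.41 for Notch2 1451889_at, from -1.21 to 0.46 for Notch3 1421965_s_at, from -0.96 to 0.51 for Notch3 1421964_at, from -0.16 to 1.13 for Heyl 1419302_at, from -0.026 to 0.32 for Nrarp 1417985_at, from -0.97 to 0.53 for Nrarp 1417986_at. The cause of these turns was not tested. Deviations from the group means cannot tell if the replicate numbers pair samples. With 2 TNF-LTBR arrays the deviations mirror each other, so each correlation recurs with its sign turned. They correlated at 0.124 for number 1 and -0.689 for number 2, and TNF-LTBR array 2 deviated with control array 3 (0.713). With the replicate block 0 member probe sets passed and Hes1 differed by -0.86, which equals its value without control replicate 3, an array with no partner. Member probe sets at an unadjusted p under 0.05 numbered 0 to 2 over all settings. Hey1 and Hey2 lay below the filter, which limits what can be said of them.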
